A study of Homo sapiens with 6 samples.

Results

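Expression of 10 genes of the integrated stress response was followed in PANC1 cells, an established human pancreatic carcinoma line, after treatment with gemcitabine. The genes were ATF4, DDIT3, TRIB3, ASNS, CHAC1, SESN2, DDIT4, PSAT1, PHGDH and CEBPB, out of 20461 protein-coding genes in the deposited RNA-seq table. They were listed for their known place in this pathway, but with earlier results of these data known. All 10 were found by their Ensembl identifier, and all 10 passed the filter of at least 10 fragments over the 4 libraries, as did 14854 genes in all. Cells were given vehicle (0.1% DMSO, 2 RNA libraries) or 50 nM gemcitabine, a deoxycytidine analogue used against pancreatic cancer (2 RNA libraries), for 48 h. DNaseI-seq, which marks open chromatin, was done under the same conditions with 1 library each. Whether the gemcitabine-treated cells also received DMSO is not given in the sources used here. All samples come from 1 cell line, so that replicates measure the spread between cultures of that line and not between tumours.

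In the integrated stress response, kinases that sense unfolded protein, amino acid shortage, double-stranded RNA or loss of heme phosphorylate the translation initiation factor eIF2. Most translation then slows, while the mRNA of the transcription factor ATF4 is translated more. ATF4 joins C/EBP proteins at composite elements in the promoters of genes for amino acid supply, redox balance and cell death. Because ATF4 is controlled to a large part in translation, its mRNA does not report the amount of its protein, and RNA-seq measured only mRNA.

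The letters of the composite element were read from the reference genome first, because they mark where ATF4 and C/EBP proteins are known to bind. The letters TGATGNAA, searched on both strands in the 500 bases before the main transcription start, occurred at 4 of the 10 genes, ASNS, CHAC1, DDIT3 and SESN2. Over all promoters of the same length they occurred in 960 of 20163 (4.76%). Each stretch of 30 bases is written 5′ to 3′ on the strand of its gene, with the matching letters in capitals.
ASNS: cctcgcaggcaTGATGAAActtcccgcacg
CHAC1: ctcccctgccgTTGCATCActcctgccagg
DDIT3: gttgccaaacaTTGCATCAtccccgccccc
SESN2: gtgaagtccctTTTCATCAcgcaaccctaa
The ASNS stretch (chr7:97501770-97501799, GRCh37, minus strand) holds the letters on the strand of the gene, at -68 to -61 from the start. At CHAC1 (chr15:41245449-41245478, plus strand), DDIT3 (chr12:57914585-57914614, minus strand) and SESN2 (chr1:28585722-28585751, plus strand) they read on the opposite strand. They lie at -209 to -202 in CHAC1, at -306 to -299 in DDIT3 and at -296 to -289 in SESN2. The stretches at ASNS and CHAC1 overlap exons of other transcripts of the same genes. The letters TGACGTCA of the cyclic AMP response element, which cannot overlap the composite letters, occurred in 581 of all promoters (2.88%) and in 0 of the 10. A match is a description of letters and does not show binding, and the absence of letters says only that they are not in these windows.

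The RNA libraries ranged from 13194533 to 15766237 fragments, the gemcitabine pair being the smaller, so that 3 fragments stand for 0.19 to 0.227 CPM (fragments scaled to the library's depth). Replicates differed by more than counting noise in both conditions and were treated as separate samples. The duct and carcinoma markers KRT7, KRT8 and KRT18 were high in all libraries, and the 6 such markers summed to 2367 and 2526 FPKM in vehicle and to 2551 and 2624 FPKM in gemcitabine. KRT19, EPCAM and SOX9, the other markers of this list, were low, with at most 6.91, 4.29 and 3.90 FPKM in a library. Markers of other pancreas and stroma cells summed to 18.4 and 18.6 FPKM in vehicle and to 35.3 and 38.9 FPKM in gemcitabine. Of these 12 markers, 5 were tested and 3 (CD68, LUM and VWF) were higher after gemcitabine, while the acinar, islet and T-cell genes PRSS1, INS, GCG and CD3E were at 0 fragments in every library. The part of these markers in the results was not tested.

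Most of the 10 genes fell after gemcitabine. With a change taken as an adjusted p under 0.05 in edgeR's quasi-likelihood test (Benjamini-Hochberg over all genes tested), 6 genes were lower (DDIT4, ATF4, ASNS, PSAT1, TRIB3 and CEBPB), 2 were higher (CHAC1 and SESN2) and 2 did not pass (DDIT3 and PHGDH). Over all genes tested, 20.0% were lower and 18.5% were higher by the same rule. A stricter call, which also asks for a fold over 1.5, a mean of at least 0.1 FPKM in 1 condition and a difference of at least 1 FPKM, was met by DDIT4 and ATF4 downwards and by CHAC1 and SESN2 upwards. Of all genes, 4.43% met this call downwards and 5.69% upwards. The median log2 fold change of the 10 genes was -0.37, beside 0.0068 over all genes. In bulk RNA, a change in the share of cells that express a gene and a change in RNA per cell cannot be told apart.

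These counts rest on the count model and on its scaling. Scaling by library totals instead of TMM moved the median of all genes to 0.117 and that of the 10 genes to -0.26, with 2 higher and 5 lower. Over all 14854 genes it gave 4074 higher and 1977 lower by the adjusted p, and it moved the split of called genes from 56.2% to 73.6% higher. With limma on log2(FPKM + 1), 1 of the 10 genes passed upwards and 0 downwards, where 2 and 4 had an unadjusted p under 0.05. At that unadjusted threshold 4645 of all 14854 genes passed in this fit. By the adjusted p few did, 399 upwards and 148 downwards. Without vehicle replicate 1 fewer of the 10 genes passed, and without gemcitabine replicate 2 more did, as was so over all genes. Counts from fits without 1 library, here and below, therefore also follow how many genes passed at all.

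**Figure D1:**
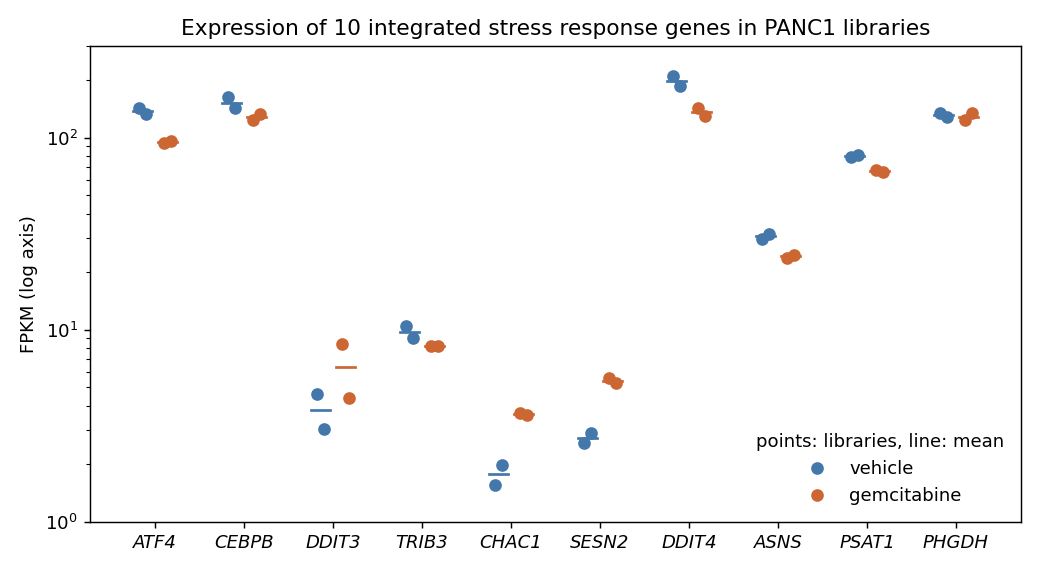
Expression of the 10 genes in FPKM on a log axis, with 1 point per library (blue vehicle, orange gemcitabine) and a line at the mean of each condition. The points of DDIT3 and PHGDH overlap between the conditions, and those of the other 8 genes do not.

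ATF4, the transcription factor that gives the response its output, had 143 and 132 FPKM (fragments relative to the length of the transcript and the depth of the library) in the vehicle libraries and 94.0 and 96.5 FPKM in the gemcitabine libraries. Both gemcitabine libraries were below both vehicle libraries. The mean went from 137 ± 8.17 FPKM to 95.2 ± 1.79 FPKM (SD, n = 2 each), and the count test gave a log2 fold change of -0.63 ± 0.0669 (SE), 1.55-fold lower (edgeR adjusted p = 5.45e-06). The gene lies at chr22:39915700-39918688 on the plus strand (hg19). Scaled by library totals, the log2 fold change was -0.52, under a fold of 1.5, and limma on log2(FPKM + 1) gave -0.52 with an adjusted p of 0.0556. ATF4 has 4 annotated pseudogenes, and its deposited fragment numbers were whole in every library.

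CEBPB encodes a C/EBP factor that pairs with ATF4 at composite elements. It was at 162 and 142 FPKM in vehicle and at 123 and 132 FPKM in gemcitabine, with no overlap. The gap between the nearest libraries of the conditions was smaller than that between the vehicle libraries. The log2 fold change was -0.36 ± 0.0721 (edgeR adjusted p = 0.00119), and it no longer passed without vehicle replicate 1 (-0.28, adjusted p = 0.0826).

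DDIT3 encodes CHOP, a factor of the same family that promotes cell death under lasting stress. It had few fragments, 59 and 45 in vehicle and 77 and 51 in gemcitabine, or 4.60 and 3.05 FPKM against 8.45 and 4.39 FPKM. The second gemcitabine library fell within the range of the vehicle libraries. The log2 fold change of 0.41 ± 0.26 did not pass (edgeR adjusted p = 0.233). It was 0.67 without gemcitabine replicate 2 (adjusted p = 0.0256) and 0.10 without gemcitabine replicate 1. Part of the 1307 exon bases of DDIT3 is shared with other genes, 105 bases with a gene model of a later annotation on the same strand, 68 with MARS1 and 58 with MBD6 on the opposite strand, and since the use of strand in counting is not given in the sources used here, its counts are uncertain.

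TRIB3 encodes a pseudokinase that is induced by ATF4 and CHOP and restrains them in turn. Its level was 10.5 and 9.03 FPKM in vehicle and 8.23 and 8.25 FPKM in gemcitabine. The libraries did not overlap, but the gap between the nearest ones was smaller than that between the vehicle libraries. The log2 fold change was -0.38 ± 0.103 (edgeR adjusted p = 0.00909), and the adjusted p was 0.148 without vehicle replicate 1, 0.0709 without vehicle replicate 2 and 0.0826 with DESeq2.

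CHAC1, an enzyme that breaks down glutathione and a known target of ATF4, was the lowest of the 10 genes. It had 27 and 45 fragments in vehicle and 65 and 62 in gemcitabine, or 1.56 and 1.97 FPKM against 3.67 and 3.60 FPKM. The gemcitabine libraries were alike and above both vehicle libraries, which themselves differed. CHAC1 rose 1.91-fold (log2 fold change 0.93 ± 0.265, edgeR adjusted p = 0.0121). This rise depended on 1 library, since without vehicle replicate 1 the log2 fold change was 0.65 with an adjusted p of 0.171, and DESeq2 gave an adjusted p of 0.075 with all 4.

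SESN2 encodes sestrin 2, a leucine sensor that restrains the growth kinase complex mTORC1. It had 136 and 171 fragments in vehicle and 273 and 248 in gemcitabine, which is 2.56 and 2.88 FPKM against 5.59 and 5.26 FPKM. The conditions were well apart and the replicates close. SESN2 rose 1.84-fold (log2 fold change 0.88 ± 0.13, edgeR adjusted p = 0.000105). It was also the gene that passed in limma on log2(FPKM + 1), narrowly (adjusted p = 0.0486). SESN2 did not pass in limma with a pseudocount of 0.1 (0.0572), without a filter (0.0756) or with a mean-variance trend (0.0544).

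DDIT4, also called REDD1, restrains mTORC1 as well and was the most abundant of the 10 genes. It was at 209 and 186 FPKM in vehicle and at 142 and 129 FPKM in gemcitabine, without overlap. DDIT4 fell 1.68-fold (log2 fold change -0.75 ± 0.0681, edgeR adjusted p = 1.46e-06). The ratio of mean FPKM was smaller, -0.54 on the log2 scale, and limma on log2(FPKM + 1) gave an adjusted p of 0.0718. The mTORC1 inhibitors DDIT4 and SESN2 moved in opposite directions.

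ASNS encodes asparagine synthetase, a standard target of ATF4 under amino acid shortage. Its level was 29.8 and 31.3 FPKM in vehicle and 23.7 and 24.4 FPKM in gemcitabine, with narrow replicates and no overlap. The log2 fold change was -0.48 ± 0.0801 (edgeR adjusted p = 0.000282).

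PHGDH and PSAT1 encode enzymes of serine synthesis that act in sequence. PSAT1 was at 79.0 and 81.0 FPKM in vehicle and at 68.0 and 66.4 FPKM in gemcitabine. Its log2 fold change was -0.40 ± 0.0663 (edgeR adjusted p = 0.000287), and the libraries did not overlap. PHGDH was at 134 and 128 FPKM in vehicle and at 123 and 134 FPKM in gemcitabine, so that the conditions overlapped in FPKM. In TMM-scaled counts PHGDH did not overlap, with 257 and 252 CPM in vehicle and 221 and 241 CPM in gemcitabine. Its log2 fold change of -0.14 ± 0.068 did not pass (edgeR adjusted p = 0.119), though it did without gemcitabine replicate 2 (-0.20, adjusted p = 0.00303). ASNS has 5 annotated pseudogenes and PSAT1 has 4, and the deposited fragment numbers of both were whole in every library.

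**Figure D2:**
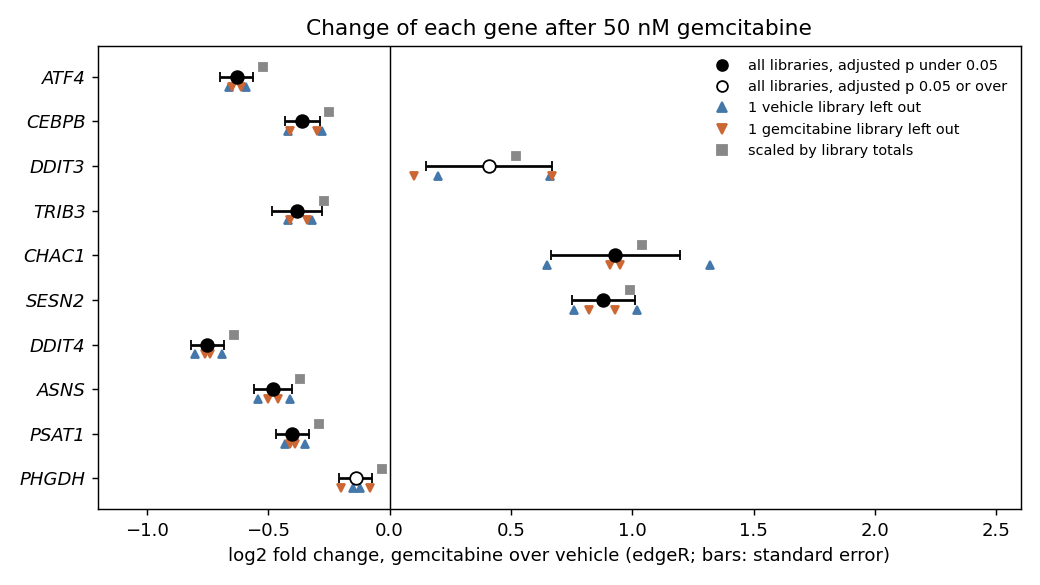
Log2 fold change of each gene, gemcitabine over vehicle, with circles for all 4 libraries (filled where the adjusted p is under 0.05), bars for the standard error, triangles for fits with 1 library left out and squares for scaling by library totals. CHAC1 and DDIT3 spread most when a library is left out, from 0.65 to 1.32 and from 0.10 to 0.67.

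By FPKM, which can be compared between genes, the order in vehicle was DDIT4 (mean 198), CEBPB (152), ATF4 (137), PHGDH (131), PSAT1 (80.0), ASNS (30.6), TRIB3 (9.76), DDIT3 (3.82), SESN2 (2.72) and CHAC1 (1.77). The libraries of CEBPB and ATF4 overlapped, as did those of ATF4 and PHGDH, and all other neighbours were apart. In gemcitabine, DDIT4 (135), PHGDH (129) and CEBPB (128) came before ATF4 (95.2), and DDIT4 overlapped PHGDH and PHGDH overlapped CEBPB. At the low end, TRIB3 (8.24), DDIT3 (6.42) and SESN2 (5.42) were no longer apart, since DDIT3 overlapped both. The 2 genes that rose were the 2 with the lowest level in vehicle, and the 6 that fell ranged from 9.76 to 198 FPKM there.

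Among the 5 genes most like ATF4 over the 4 libraries were FSTL3, STIP1, MCM2 and CNBP, by the Euclidean distance between centred log2 CPM among the 2575 genes whose mean reached 100 CPM. The distances of these 4 lay between 0.016 and 0.043, and their log2 fold changes between -0.63 and -0.60, beside -0.63 for ATF4. With 4 libraries in 2 conditions, this likeness reflects little more than a fall of the same size.

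The kinases and phosphatase that set the phosphorylation of eIF2 moved by at most 0.38 on the log2 scale. Of 9 genes, 2 rose, 5 fell and 2 did not pass, with a median log2 fold change of -0.21 (0.0068 over all genes). For this list and those that follow, the shares over all genes are 18.5% higher and 20.0% lower. At an unadjusted p under 0.05 in edgeR, 3428 of all 14854 genes were higher and 3586 lower. With library totals, 4074 of all 14854 genes were higher and 1977 lower, with a median of 0.117. With DESeq2, 1708 were higher and 2157 lower. For this list the median with library totals was -0.11 with 3 genes lower. By the ratio of mean FPKM the median of the list was 0.12, beside 0.14 over all genes, so that no downward shift was seen on that scale. EIF2AK1, the heme-regulated kinase, had -0.03 (edgeR adjusted p = 0.762), and EIF2AK3, the kinase PERK of the endoplasmic reticulum, had 0.13 (adjusted p = 0.347). EIF2AK4, the amino acid sensor GCN2, fell (-0.29, adjusted p = 0.00433), as did its activator GCN1 (-0.33), its inhibitor IMPACT (-0.32) and the phosphatase subunit PPP1R15B (-0.21). In FPKM the conditions overlapped for GCN1 and IMPACT, and the ratio of IMPACT was only -0.02 on the log2 scale. EIF2AK2, the sensor PKR of double-stranded RNA, fell by fragment counts (-0.30, adjusted p = 0.00239), while its FPKM was 20.1 and 21.7 in vehicle and 25.0 and 20.5 in gemcitabine, a ratio of 0.12 on the log2 scale in the other direction. PPP1R15A (GADD34), which brings the phosphatase to eIF2 as feedback, rose (0.38, adjusted p = 0.00434), with 384 and 378 fragments in vehicle against 465 and 449 in the smaller gemcitabine libraries. DNAJC3, an inhibitor of PERK and PKR, rose too (0.30, adjusted p = 0.0246). Leaving out vehicle replicate 1 left 1 of these genes higher and 0 lower, and leaving out vehicle replicate 2 left 0 changed.

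Of the 8 subunits of eIF2 and its exchange factor eIF2B, 2 fell (EIF2S2, -0.24, and EIF2B5, -0.23) and 6 did not pass. In edgeR, 0 rose, also at an unadjusted p under 0.05 and with DESeq2. Without either vehicle library, and with library totals, 0 fell. The median was -0.09, and 0.02 with library totals.

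Among 8 transcription factors that pair with ATF4 or are related to it, 2 rose and 3 fell, with a median of -0.02. With library totals 3 were higher and 2 lower, with a median of 0.09, so that the balance and the sign of the median turned. Over all genes the balance turned too, from 2750 higher and 2975 lower to 4074 and 1977, with a median of 0.117. NUPR1, a small stress-induced chromatin protein, rose most (0.81, edgeR adjusted p = 0.00247), from 67 and 77 fragments to 111 and 122. ATF3, induced by many stresses, rose by less in the counts (0.40, adjusted p = 0.00213), with 17.4 and 18.6 FPKM in vehicle and 35.6 and 31.3 FPKM in gemcitabine. CEBPA fell most (-1.10, adjusted p = 0.00371), though from only 80 and 71 fragments to 39 and 26. CEBPG, a partner of ATF4 at composite elements, fell (-0.54, adjusted p = 0.000189). ATF5, which is controlled in translation like ATF4, did not pass (0.21, adjusted p = 0.159). Without vehicle replicate 1, 0 of these genes were higher and 1 was lower, and without vehicle replicate 2, 1 was higher and 2 were lower.

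Of 12 enzymes of amino acid synthesis and folate metabolism, 5 fell and 7 did not pass, with a median of -0.19. PYCR1, the last enzyme of proline synthesis, fell (-0.74, edgeR adjusted p = 1.03e-05), from 91.1 and 79.5 FPKM to 47.6 and 55.8 FPKM. The mitochondrial folate enzyme MTHFD1L fell alike (-0.73, adjusted p = 2.93e-06), and ALDH18A1, ALDH1L2 and CBS also fell. PSPH, which completes serine synthesis after PHGDH and PSAT1, was at 0.00 (adjusted p = 0.979). In edgeR 0 rose with 1 at an unadjusted p under 0.05, and 0 rose with DESeq2, but 1 rose with library totals and 1 without gemcitabine replicate 1.

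Of 10 amino acid transporters, 7 fell and 3 (SLC38A2, SLC1A4 and SLC43A1) did not pass, and the median of -0.44 was the lowest of the lists. SLC7A5, which carries large neutral amino acids such as leucine, fell to 532 and 567 FPKM from 1090.3 and 995 FPKM in vehicle. Its log2 fold change was -1.03 (edgeR adjusted p = 1.35e-07), and its partner chain SLC3A2 fell by 0.79 on the log2 scale (adjusted p = 1.03e-06), from 1533 and 1479 FPKM to 929.9 and 983 FPKM. Both libraries of each condition were close, and the conditions were well apart for both chains. SLC1A5, the glutamine transporter, also met the stricter call (-0.74, adjusted p = 1.53e-06). SLC7A5 has 2 annotated pseudogenes, and its fragment numbers were whole. In edgeR 0 transporters rose, also at an unadjusted p under 0.05 and with DESeq2, but 1 rose with library totals and 1 without gemcitabine replicate 1. Between 6 and 7 fell with any 1 library left out.

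Of 12 aminoacyl-tRNA synthetases under ATF4, which load tRNAs with amino acids, 9 fell and 3 (CARS1, SARS1 and WARS1) did not pass, with a median of -0.31. YARS1 (-0.56, edgeR adjusted p = 1.21e-05) and TARS1 (-0.55, adjusted p = 1.39e-05) fell most. In edgeR 0 rose, also at an unadjusted p under 0.05 and with DESeq2, but with library totals 1 was higher and 7 were lower. Without vehicle replicate 1, and without vehicle replicate 2, 5 were lower.

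The effectors of the response were split. Of 14 tested genes (FGF21, with at most 3 fragments in a library, was not tested), 4 rose, 7 fell and 3 (KLHL24, BBC3 and TNFRSF10B) did not pass. GDF15, a secreted stress signal, rose more than any other gene of these lists (2.17, edgeR adjusted p = 3.36e-09), from 214 and 208 fragments to 924 and 836, or 13.4 and 12.0 FPKM to 70.7 and 58.6 FPKM. VLDLR, a lipoprotein receptor (0.48, adjusted p = 0.0143), the death gene PMAIP1 (0.43, adjusted p = 0.00277) and the autophagy gene MAP1LC3B (0.39, adjusted p = 0.000663) rose by less. EIF4EBP1, which blocks cap-dependent translation when mTORC1 is low, fell (-0.62, adjusted p = 3.31e-05), and XPOT, which exports tRNA from the nucleus, fell by 0.57 (adjusted p = 1.42e-05). Among the other 5 that fell, SQSTM1 had an FPKM ratio of 0.03 in the other direction. Without vehicle replicate 1, 2 effectors were higher and 5 lower, and without vehicle replicate 2, 2 were higher and 6 lower. With library totals 6 were higher and 6 lower. The median of the effectors was -0.04, and 0.07 with library totals.

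The ATF6 and XBP1 arms of the unfolded protein response act beside PERK. Of 16 genes, 13 did not pass and 3 fell, which is close to the share of all genes that fell. These were HSPA5 (BiP, the main chaperone of the endoplasmic reticulum, -0.34, edgeR adjusted p = 0.00104), HSP90B1 (-0.26, adjusted p = 0.0171) and ATF6 (-0.22, adjusted p = 0.0281). In edgeR 0 rose, while 2 had an unadjusted p under 0.05 upwards and 1 rose with DESeq2. With library totals 3 were higher and 1 lower, and without either vehicle library 0 changed.

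Paralogs of the 10 genes moved in both directions, 4 higher, 5 lower and 1 (ATF5) not passing. With library totals 5 were higher and 2 lower, so that the balance turned, as it did over all genes (4074 and 1977). With DESeq2 the counts were 2 and 3, beside 1708 and 2157 of all genes tested. The sestrins SESN1 (0.58, edgeR adjusted p = 0.000353) and SESN3 (0.31, adjusted p = 0.00236) rose with SESN2. DDIT4L rose (0.92, adjusted p = 0.0269) while DDIT4 fell, but it had only 21 to 47 fragments in a library. CHAC2 fell (-0.48, adjusted p = 0.0205) while CHAC1 rose. TRIB1 fell like TRIB3 (-0.33, adjusted p = 0.0226), and TRIB2 rose (0.50, adjusted p = 0.0277). CEBPA, CEBPG and CEBPD (-0.20, adjusted p = 0.0251) fell like CEBPB. The differences between paralogs were not tested. Without vehicle replicate 1, 1 paralog was higher and 1 lower, without vehicle replicate 2 it was 2 and 2, and without gemcitabine replicate 2 it was 2 and 5.

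**Figure D3:**
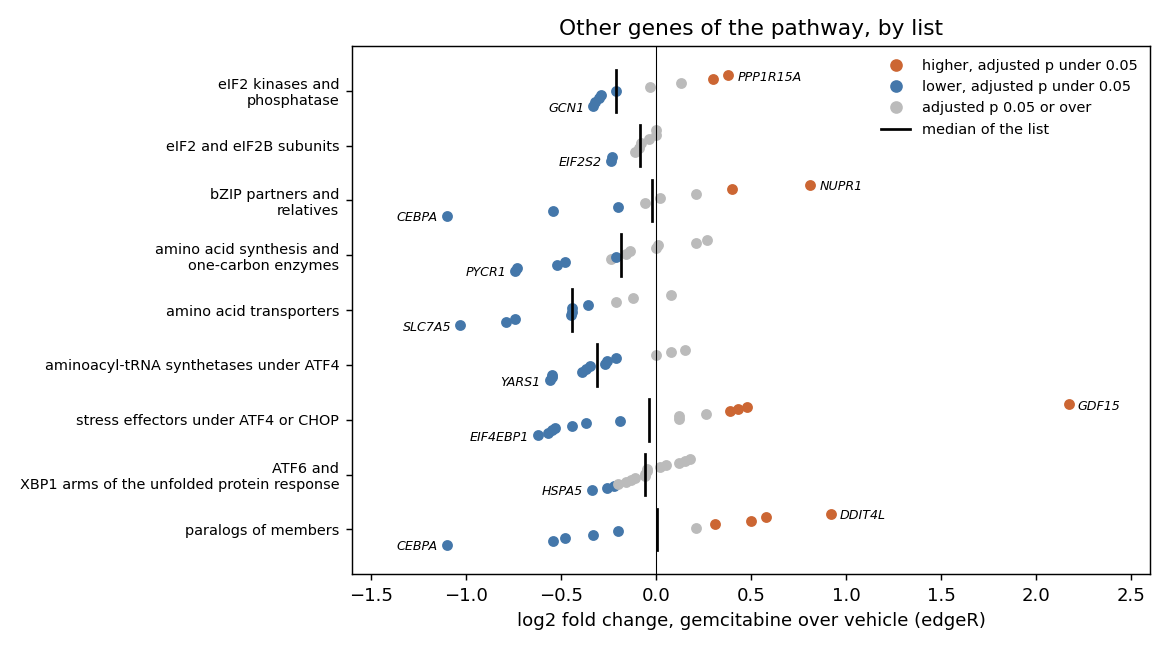
Log2 fold change of each tested gene of the 9 other lists, 1 point per gene, coloured by direction where the adjusted p is under 0.05, with a line at the median of each list. The transporters have the lowest median (-0.44), and GDF15 (2.17) stands apart from all other points.

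Over the 95 distinct genes tested in these lists, without the 10 members, 12 rose, 43 fell and 40 did not pass, where 18.5% of all genes tested were higher and 20.0% lower. The median was -0.16 (0.0068 over all genes), and 2 met the stricter call upwards and 6 downwards (5.69% and 4.43% of all genes). Without vehicle replicate 1 these counts were 4 and 21, without vehicle replicate 2 they were 5 and 23, and with library totals they were 21 and 30. The medians of the ratio of mean FPKM lay above those of the count test, at 0.14 on the log2 scale over all genes, 0.00 over these 95 genes and -0.25 over the 10 members. By list they were 0.15 for the effectors, 0.13 for the ATF6 and XBP1 arms and 0.12 for the kinases and phosphatase. They were 0.10 for the related transcription factors, 0.10 for the paralogs and 0.07 for the eIF2 and eIF2B subunits. Below 0 were the synthesis enzymes (-0.06), the synthetases (-0.22) and the transporters (-0.33). Of the 55 genes that changed, 2 (EIF2AK2 and SQSTM1) had an FPKM ratio in the other direction.

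Open chromatin was compared through the DNaseI peak lists, which held 9605 peaks for vehicle and 10695 for gemcitabine. With 1 library per condition there was no replicate check and no test, and the depth of these libraries is not given in the files. A peak lay within 5 kb of a transcription start in vehicle for 4 of the 10 genes (ATF4, DDIT3, DDIT4 and PSAT1), as for 25.9% of 20163 protein-coding genes. In gemcitabine it was so for 7, the same 4 with ASNS, CHAC1 and SESN2, as for 29.7% of all genes. The 3 genes with a peak in the gemcitabine list only compare with 9.97% of all genes, and 0 members had one in the vehicle list only, as 6.16% of all genes did. TRIB3, PHGDH and CEBPB had none in either list.

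All these peaks covered the main transcription start of their gene. The peak of ASNS (chr7:97501233-97501899) had a score of 61.25, that of CHAC1 (chr15:41244957-41245857) 61.04 and that of SESN2 (chr1:28585443-28586379) 69.97, where a higher score stands for stronger evidence. These scores exceeded 29.1%, 28.7% and 44.7% of the peaks in the gemcitabine list. The peaks at ATF4 scored 55.71 in vehicle and 55.57 in gemcitabine, near the minimum of 50 that the lists hold. The peaks at DDIT4 scored 61.0 in vehicle and 55.8 in gemcitabine, and those at PSAT1 62.81 and 55.59. At DDIT3 the gemcitabine peak scored 60.93, and the vehicle peak (chr12:57913838-57914954) scored 76.74, the only one of these peaks above the median score of its list (71.06 for vehicle and 73.77 for gemcitabine).

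The composite letters printed above lay inside a gemcitabine peak at all 4 genes that hold them, and inside a vehicle peak at DDIT3 alone. ASNS, CHAC1 and SESN2 had no vehicle peak, and the searched window ends at the start that each peak covers. These counts therefore largely repeat which genes had a peak. The share over all promoters with the letters was not computed. Of the 3 genes with a peak in the gemcitabine list only, CHAC1 and SESN2 rose in RNA and ASNS fell. Of the 4 with a peak in both lists, ATF4, DDIT4 and PSAT1 fell and DDIT3 did not pass.

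**Figure D4:**
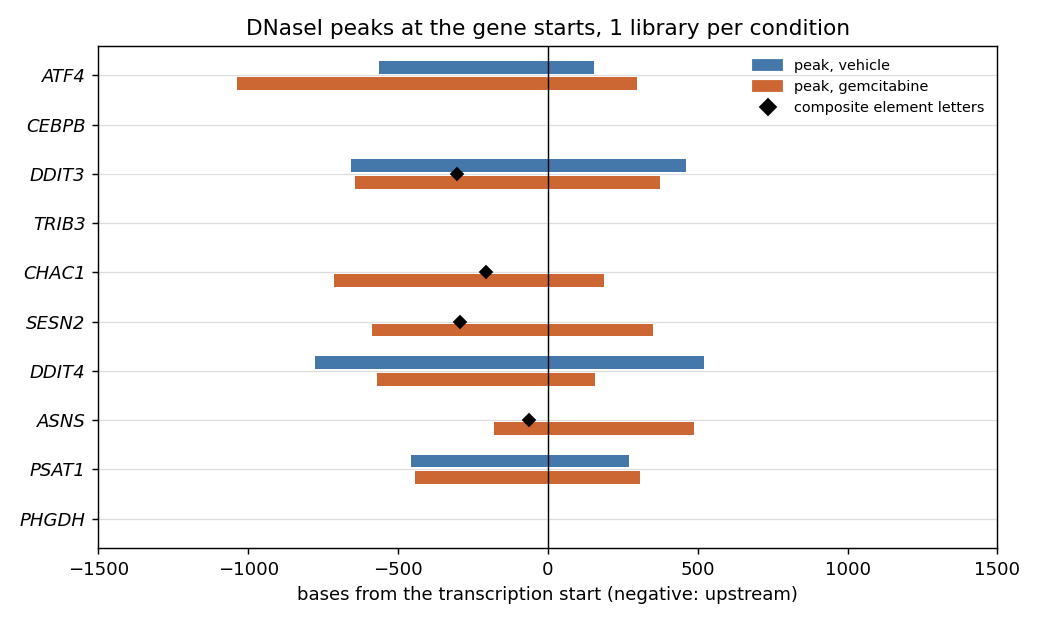
DNaseI peaks around the main transcription start of each gene, in bases from the start on the strand of the gene (blue vehicle, orange gemcitabine, 1 library each), with diamonds at the composite letters. ASNS, CHAC1 and SESN2 have a peak in the gemcitabine list only, and CEBPB, TRIB3 and PHGDH have none.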

How the data were processed

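The authors aligned the RNA-seq reads to hg19 with TopHat2 2.0.8 and counted them with Cuffdiff 2.0.2. The deposited table holds estimated counts (fragments per gene, 86.8% of the values whole) and FPKM for each of 2 libraries per condition. Another 2 columns of scaled fragments were not used. Its library index cannot be tied to the labels' replicate numbers, so numbers only name libraries. Cuffdiff marked 275 genes as failed in at least 1 library, none of them a member. The deposited peak lists give positions and a score, from MACS at a p cutoff of 1e-05.

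Symbols were matched by Ensembl identifier for 19619 genes. Estimated counts were rounded and tested with edgeR 4.0.16 (R 4.3.3) after TMM scaling, with genes of at least 10 fragments over 4 libraries. Tests were tried on simulated data. Starts came from a later Gencode annotation on GRCh37, the build of hg19, without the mitochondrial genome. Alternatives were DESeq2 1.42.0, other scalings and filters, limma 3.58.1 with pseudocounts of 1 and 0.1, an adjusted p under 0.01 and each library left out.

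Members are named in full. Of each other list the 2 largest rises and 2 largest falls that passed are named, with the eIF2 kinases, PPP1R15A, ATF3, ATF5, PSPH, HSPA5 and the paralogs, and the 5 genes most like ATF4, of which 1 is not reported here. PPP1R15B, SLC1A5, PMAIP1, MAP1LC3B, SQSTM1, ALDH18A1, ALDH1L2, CBS, ATF6 and the genes named as not passing were chosen after their values were seen. The members and lists were chosen with earlier results of these data known. The p-values rest on the spread between 2 biological replicates of 1 line, with the variance of each gene estimated with help from all genes tested.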

Additional observations from a re-analysis of the deposited data

How the results depend on the processing

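No member changed direction under any of the 14 alternatives each, which gave 140 values, of which 99 kept their side of the threshold, 39 no longer passed and 2 newly passed (DDIT3 and PHGDH without gemcitabine replicate 2). Members changed higher and called higher (2 each in edgeR) numbered 1 with DESeq2, with limma on log2(FPKM + 1) and at an adjusted p under 0.01, and 0 with limma on log2(FPKM + 0.1), without a filter, or with a mean-variance trend, the last added after seeing the data. Members changed lower (6) and called lower (2) numbered 0 in these 4 limma fits, and with library totals 1 was called lower. At an unadjusted p under 0.05 these fits gave 6, 5, 6 and 6 members. Of all genes, 4645, 4298, 4469 and 4606 passed there, of 20461 without a filter and of 14854 in the others. Over all genes the fit with 0.1 called 0 higher and 0 lower, and the filtered fit 358 and 132. The unfiltered fit called 95 and 32, against 845 and 658 in edgeR. DESeq2 called 719 and 619, and edgeR at an adjusted p under 0.01 called 738 and 633. Genes changed higher and lower numbered 399 and 148 in the filtered fit, 196 and 91 in the unfiltered and 396 and 136 with the trend. They numbered 0 and 0 with 0.1, against 2750 and 2975 in edgeR. With DESeq2 they numbered 1708 and 2157, and at an adjusted p under 0.01 in edgeR 1771 and 2082. With 1 library left out, the lone sample of a condition is assumed to vary like the others. Members changed and called higher then numbered 1 to 3, members changed lower 4 to 7 and called lower 2. Pathway genes changed higher numbered 4 to 16 (12 with all libraries, 21 with library totals) and changed lower 21 to 44. Over all genes 1225 to 3145 were then changed higher and 1384 to 3513 lower. Among peaks above the median score, 1 member had a vehicle peak within 5 kb and 0 a gemcitabine peak, beside 15.7% and 17.3% of all genes. No paired analysis was possible because nothing links the library index of the table to the labels' replicate numbers. CHAC1 and DDIT3 had 27 to 77 fragments in a library, which limits their precision.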
